A study of Mus musculus with 12 samples.

Results

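The genes described here are 34 markers of the cells of brain blood vessels: 21 of endothelial cells, which line the vessel, and 13 of mural cells, the pericytes and smooth muscle cells that wrap it. They were chosen by name, with earlier results of these data known, and each was read from the probe set (a group of short probes on the array that measures 1 transcript) with the highest mean signal over 12 arrays among those the array annotation assigned to that gene alone. Of the 34, 33 had such a probe set; Ly6c1 shares its probe set with Ly6c2 and has no value of its own. Signal passed the filter on dim probe sets for 31, of 12672 genes tested in all: 20 endothelial and 11 mural genes. Anpep, a surface peptidase of pericytes, averaged 1.43 over the 12 arrays and Itga1, an integrin subunit, 1.53, both under the filter at a log2 mean of 1.58, so only their levels are given.

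Total RNA with an integrity number above 5 came from cerebellum of mice aged 6 weeks on a C57BL/6 background, with 1 array per mouse and 3 mice per group, per the labels. The 4 groups were mice homozygous for a Sca6 knockin allele with a long glutamine repeat, 118Q (MPI 118Q/118Q), wild type littermates of that line, mice homozygous for the same kind of allele with a short repeat, 11Q (MPI 11Q/11Q), and wild type littermates of the 11Q line. The knockin lies in Cacna1a, the gene for the pore of a neuronal calcium channel, in which a long glutamine repeat causes the human ataxia SCA6. The 118Q repeat is longer than the repeats found in patients, and each allele is represented by 1 line. All values are on the authors' log2 scale, a difference is the group named first minus the group named second, and its error is a standard error (SE) from 3 against 3 arrays. A gene was called when its Benjamini-Hochberg adjusted p in limma, over all 12672 genes, was below 0.05.

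In the brain, endothelial cells are joined by tight junctions and carry pumps and transporters that decide which molecules enter, the blood-brain barrier. Endothelial growth and survival run through the receptors for vascular endothelial growth factor (VEGF) and for angiopoietins, while pericytes, drawn to the vessel through the platelet-derived growth factor receptor PDGFRB, help to keep the barrier closed. Arterial smooth muscle sets vessel width by contraction. In whole-tissue RNA, a lower signal of such genes can come from fewer vessel cells or from less RNA per cell, and these cannot be told apart.

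The arrays fit the labelled tissue: Gabra6 of granule cells read 10.4 to 10.6 and Pcp2 of Purkinje cells 10.3 to 10.7 in every array. Endothelial and mural markers were present at modest to dim signals, with Cldn5 at 5.34 to 6.23 and Rgs5 at 7.27 to 8.20 over the 12 arrays. Means over the arrays ran from 1.79 for Myh11 to 7.77 for Rgs5. Pecam1 (2.23), Kcnj8 (2.54), Cspg4 (2.55) and Des (2.71) were among the dim genes. Signals of different probe sets cannot be set against each other as amounts of RNA. The 118Q knockin arrays stood apart from all other arrays in some measures of RNA and labelling and not in others. Their 18S ribosomal RNA control signal was 8.56 to 9.23, against 9.66 to 10.3 in 118Q-line wild type arrays, a difference of -1.115 that reached the smallest two-sided p an exact permutation test allows with 3 against 3 arrays (p = 0.1). In the 11Q line it was 10.1 to 10.4 in knockin arrays, against 10.2 to 10.5 in wild type arrays (exact permutation p = 0.3). The phe labelling control read 3.91 to 4.26 in the 118Q knockin and 1.38 to 3.74 over all other arrays. The lys control read 2.74 to 2.80 in the 118Q knockin and 1.20 to 2.69 over all other arrays. The 3′ minus 5′ Gapdh difference was -0.16 to -0.12 in the 118Q knockin and -0.11 to 0.13 over all other arrays. The dap control overlapped, at 6.10 to 6.30 for the 118Q knockin against 4.88 to 6.25 for littermates, as did the thr control, at 4.09 to 4.57 for the knockin against 3.33 to 4.17 for littermates, and the 3′ minus 5′ Actb difference, at 1.04 to 1.15 for the knockin against 1.13 to 1.31 for littermates. None of these measures overlapped between the 118Q and 11Q knockins. In the 11Q knockin dap read 4.21 to 5.42, thr 2.46 to 3.35 and the Actb difference 1.19 to 1.39. The first 118Q knockin array, at 9.23, had the highest 18S signal of its group. Since every 118Q knockin array lay below every other array in 18S signal, that signal and the 118Q allele can hardly be told apart in these 12 arrays.

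The first comparison, within the 118Q line, addresses the allele with the long repeat. Flt1, the VEGF receptor VEGFR1, fell 1.93-fold, and it was the 1 gene of the 31 measured that passed the test. Of all genes tested, 0.11% were called lower in this comparison and 0.0789% higher. Most of the others leaned the same way without passing: with Flt1 counted, 27 of 31 had a difference below 0, against 5071 of 12672 genes (40%), and their median difference was -0.28, against 0.06 over all genes. At an unadjusted p below 0.05, 13 were lower and 1 was higher, where 6.7% of all genes were lower and 12% were higher. In 12 of the 31, all 3 knockin arrays lay below all 3 littermate arrays, which held for 7.24% of all genes.

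Seen array by array, 24, 28 and 28 of the 31 genes read below their littermate mean in 118Q knockin replicates 1, 2 and 3, while 41.9%, 43% and 41% of all genes did. In the 11Q line the counts were 22, 7 and 14 of 31, with 61.6%, 51.1% and 56.1% of all genes, so the 11Q knockin arrays did not share a direction. The median over the 20 endothelial genes, as a deviation from each gene's mean over 12 arrays, was -0.00461, -0.39 and -0.32 in the 3 knockin arrays and 0.18, 0.04 and 0.11 in the 118Q-line wild type arrays. Replicate 1 of the knockin thus sat close to the average of all arrays for endothelial genes. For the 11 mural genes the medians were -0.09, -0.13 and -0.18 in the knockin arrays and 0.18, 0.06 and 0.25 in the wild type arrays, with no overlap between these groups. In the 11Q line they were -0.23, 0.07 and 0.16 in the knockin arrays and -0.06, -0.07 and 0.29 in the wild type arrays. For mural genes, 11Q knockin replicate 1 thus lay below every 118Q knockin array.

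**Figure D1:**
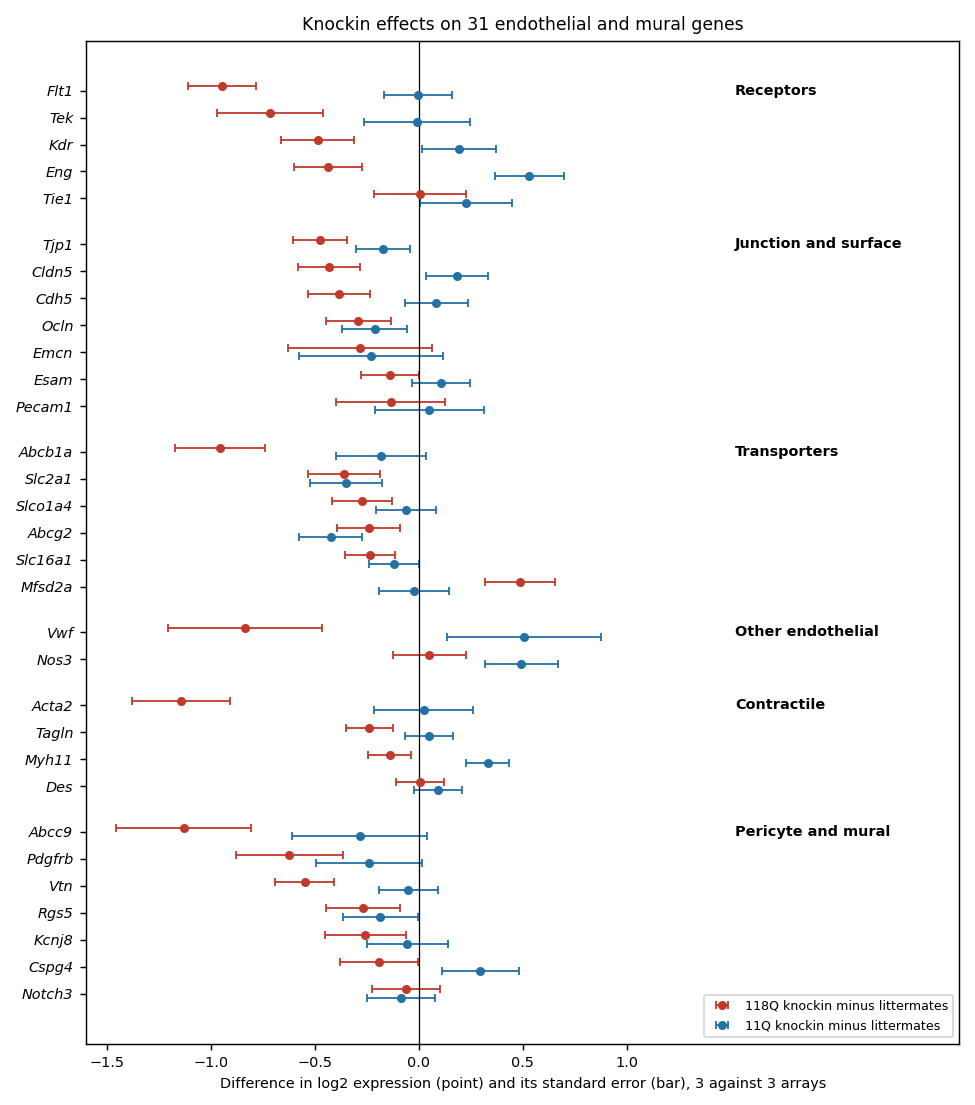
Differences in log2 expression between knockin and littermate arrays for the 31 measured genes, grouped by role, for the 118Q line (red) and the 11Q line (blue); points are differences and bars standard errors, 3 against 3 arrays. In the 118Q line 27 of 31 points lie below 0, and in the 11Q line 17 of 31.

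Among the receptors, Flt1 had log2 values of 4.24, 3.82 and 3.82 in the 118Q knockin, against 5.08, 4.55 and 5.10 in 118Q-line wild type mice. The same gene read 4.93, 5.19 and 4.95 in the 11Q knockin and 5.13, 4.90 and 5.06 in 11Q-line wild type mice. Every 118Q knockin array thus lay below every other array, and the remaining 3 groups overlapped each other. VEGFR1 binds VEGF-A tightly and signals weakly, so that it acts in part as a trap for the ligand. The 118Q difference was -0.95 ± 0.16 (SE; limma, adjusted p = 0.0465), with group means of 3.96 ± 0.24 and 4.91 ± 0.31 (SD, n = 3 each). The call sits close to the threshold and was lost on leaving out replicate 1 or 3 of the wild type (adjusted p = 0.129 and 0.166) or replicate 2 or 3 of the knockin (0.131 and 0.212), with differences of -0.88 to -0.85.

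Kdr, the receptor VEGFR2 that carries most of the VEGF signal in endothelium, read 3.64, 3.42 and 3.07 in the 118Q knockin and 4.16, 3.49 and 3.94 in its littermates. One wild type array fell within the knockin range, and the difference of -0.49 ± 0.18 did not pass (limma, adjusted p = 0.174). Tek, the angiopoietin receptor TIE2, read 3.64, 2.75 and 3.13 in the knockin and 3.96, 3.84 and 3.86 in its littermates. Here the groups did not overlap, but the knockin arrays were spread widely and the difference of -0.71 ± 0.25 did not pass (adjusted p = 0.169). Eng, endoglin, a co-receptor for ligands of the TGF-beta family on endothelium, read 4.05, 4.24 and 3.74 in the knockin and 4.70, 4.47 and 4.17 in its littermates. These groups overlapped in 1 array each (-0.44 ± 0.16, limma, adjusted p = 0.187). Tie1, an orphan relative of TIE2, was dim at 1.32 to 2.24 over the 12 arrays and differed by 0.01 ± 0.22.

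The promoters of Flt1, Kdr and Eng are shown because these are the 3 receptors that were called lower in the 118Q knockin than in the 11Q knockin. Each runs from 250 bases before to 50 bases after the gene's start, read 5′ to 3′ in the direction of the gene, from RefSeq on build GRCm38.p6: Flt1 at chr5:147725962-147726261 on the minus strand, Kdr at chr5:75978406-75978705 on the minus strand and Eng at chr2:32646345-32646644 on the plus strand. Capitals mark GGAAGT or its reverse complement ACTTCC, a core sequence bound by ETS transcription factors, a family that drives many endothelial genes.
Flt1: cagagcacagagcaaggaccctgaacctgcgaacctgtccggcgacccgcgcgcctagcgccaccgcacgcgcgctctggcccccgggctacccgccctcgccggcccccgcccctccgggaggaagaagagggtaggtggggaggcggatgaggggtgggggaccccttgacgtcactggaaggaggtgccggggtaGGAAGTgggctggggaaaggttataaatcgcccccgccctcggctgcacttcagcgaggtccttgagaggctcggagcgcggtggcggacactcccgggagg
Kdr: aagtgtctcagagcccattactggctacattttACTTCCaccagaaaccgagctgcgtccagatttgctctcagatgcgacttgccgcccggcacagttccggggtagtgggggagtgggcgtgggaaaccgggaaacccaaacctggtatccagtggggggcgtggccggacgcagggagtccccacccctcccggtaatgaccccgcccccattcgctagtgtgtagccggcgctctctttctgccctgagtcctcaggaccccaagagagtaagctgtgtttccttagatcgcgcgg
Eng: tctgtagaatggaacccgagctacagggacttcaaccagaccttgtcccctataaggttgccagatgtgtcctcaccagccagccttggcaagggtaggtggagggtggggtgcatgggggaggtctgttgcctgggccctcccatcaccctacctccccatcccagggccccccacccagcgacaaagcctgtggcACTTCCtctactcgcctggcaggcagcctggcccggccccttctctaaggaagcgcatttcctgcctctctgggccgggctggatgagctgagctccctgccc
Each of the 3 holds GGAAGT or ACTTCC once, and other forms of ETS site were not counted. A promoter was given for 23 of the 31 measured genes, and 5 of these (21.7%: Flt1, Kdr, Tie1, Eng and Abcg2) hold the core on either strand, against 26.5% of 27025 mouse genes with promoters of the same length. The share with this sequence among the vessel genes is thus not above that of promoters at large. The GC box GGGCGG, a site of SP1, stands in 12 of 23 (52.2%, against 38.2% of all genes) and TATAAA in 4 of 23 (17.4%, against 15.7%), again on either strand; these matches describe letters in the window and not binding.

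Junction and surface genes were below 0 in 7 of 7 cases in the 118Q line, with a median of -0.29, and none passed the test. Tjp1, the scaffold ZO-1 that anchors tight junctions, read 6.14, 6.14 and 6.17 in the 118Q knockin and 6.51, 6.56 and 6.80 in its littermates. Its knockin arrays were nearly alike and lay below every other array, of which the lowest, a wild type array of the 11Q line, read 6.38. The difference was -0.48 ± 0.13 (limma, adjusted p = 0.101). Cldn5, claudin 5, the main sealing protein of brain endothelial junctions, read 5.82, 5.34 and 5.37 in the knockin and 6.04, 5.71 and 6.06 in its littermates. Knockin replicate 1 lay within the wild type range and the other knockin arrays below it (-0.43 ± 0.15, limma, adjusted p = 0.155). Cdh5, VE-cadherin of the adherens junction, read 2.98, 2.82 and 3.04 in the knockin and 3.53, 3.14 and 3.32 in its littermates, without overlap (-0.38 ± 0.15, adjusted p = 0.200).

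The remaining junction and surface genes overlapped between the groups. Ocln, occludin of tight junctions, differed by -0.29 ± 0.16 and Emcn, the sialomucin endomucin, by -0.28 ± 0.35. Esam, an endothelial adhesion molecule, differed by -0.14 ± 0.14 and Pecam1, the adhesion molecule CD31, by -0.14 ± 0.26. These 4 had adjusted p-values of 0.340 to 0.817 in limma.

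Barrier transporters did not all lean one way: 5 of 6 were below 0 in the 118Q line, with a median of -0.26, and none passed. Abcb1a, the drug efflux pump P-glycoprotein, read 4.90, 3.93 and 4.05 in the 118Q knockin and 5.14, 5.11 and 5.51 in its littermates. No array overlapped, but knockin replicate 1 lay nearer to the littermates than to the other knockin arrays. The difference of -0.96 ± 0.22 did not pass (limma, adjusted p = 0.0689). Mfsd2a, the lipid transporter that keeps vesicle transport across brain endothelium low, leaned the other way: it read 5.02, 4.58 and 4.81 in the knockin and 4.23, 4.71 and 4.02 in its littermates. Wild type replicate 2 fell within the knockin range, and the difference of 0.49 ± 0.17 did not pass (adjusted p = 0.158). Slc2a1, the glucose transporter GLUT1, differed by -0.36 ± 0.17, Slco1a4, an organic anion transporter, by -0.27 ± 0.15, Abcg2, another efflux pump, by -0.24 ± 0.15, and Slc16a1, the monocarboxylate transporter MCT1, by -0.23 ± 0.12. For these 4 the adjusted p-values were 0.286 to 0.420 in limma, and Slc16a1 alone had no overlap between the groups.

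Vwf, von Willebrand factor of endothelial storage granules, read 2.08, 1.18 and 1.47 in the 118Q knockin and 2.75, 1.54 and 2.94 in its littermates. Wild type replicate 2 lay among the knockin arrays, and the difference of -0.83 ± 0.37 did not pass (limma, adjusted p = 0.251). The Vwf values of 1.18, 1.47 and 1.54 are under the filter level of 1.58 for dim probe sets. Nos3, the nitric oxide synthase of endothelium, read 3.41, 3.21 and 3.33 in the knockin and 3.35, 3.30 and 3.15 in its littermates, with overlap (0.05 ± 0.17, adjusted p = 0.904).

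Among contractile genes, Acta2, alpha smooth muscle actin, had the lowest difference of all 31 genes. It read 3.85, 3.24 and 3.53 in the 118Q knockin and 4.52, 4.74 and 4.79 in its littermates. All knockin arrays lay below all littermate arrays and below all arrays of the 11Q line, of which the lowest read 3.94. The difference of -1.14 ± 0.24 nevertheless fell just short (limma, adjusted p = 0.0599). The array annotation lists 3 probe sets for Acta2, of which this 1 passed the filter; like those read for Abcc9 and Notch3, it is of a type whose probes can match several transcripts. Tagln, the actin-binding protein SM22, read 3.24, 3.40 and 3.17 in the knockin and 3.63, 3.48 and 3.42 in its littermates, a narrow separation (-0.24 ± 0.11, adjusted p = 0.287). Myh11, smooth muscle myosin, was near the filter and differed by -0.14 ± 0.10, and Des, the filament protein desmin, by 0.00 ± 0.12. The 4 contractile genes therefore ranged from -1.14 to 0.00 and did not share 1 size of difference.

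The 7 measured genes listed for pericytes all had differences below 0, with a median of -0.27. Vtn, vitronectin, a matrix protein that brain pericytes secrete, read 6.53, 6.03 and 6.35 in the 118Q knockin and 6.91, 6.73 and 6.91 in its littermates (-0.55 ± 0.14, limma, adjusted p = 0.0856). Abcc9, the SUR2 subunit of the pericyte potassium channel, read 2.87, 1.98 and 2.51 in the knockin and 3.50, 3.09 and 4.16 in its littermates (-1.13 ± 0.32, adjusted p = 0.110). Neither gene overlapped between the groups, although Abcc9 was spread widely within both. Kcnj8, the pore subunit Kir6.1 of the same channel, read 2.83, 2.57 and 2.46 in the knockin and 2.78, 3.03 and 2.82 in its littermates, with overlap (-0.26 ± 0.19, adjusted p = 0.509). Pdgfrb differed by -0.62 ± 0.26 with overlap (adjusted p = 0.220), Rgs5, a regulator of G-protein signalling abundant in pericytes, by -0.27 ± 0.18 without overlap, Cspg4, the proteoglycan NG2, by -0.19 ± 0.19, and Notch3, the receptor mutated in the small-vessel disease CADASIL, by -0.06 ± 0.16. The last 3 had adjusted p-values of 0.448 to 0.870 in limma.

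**Figure D2:**
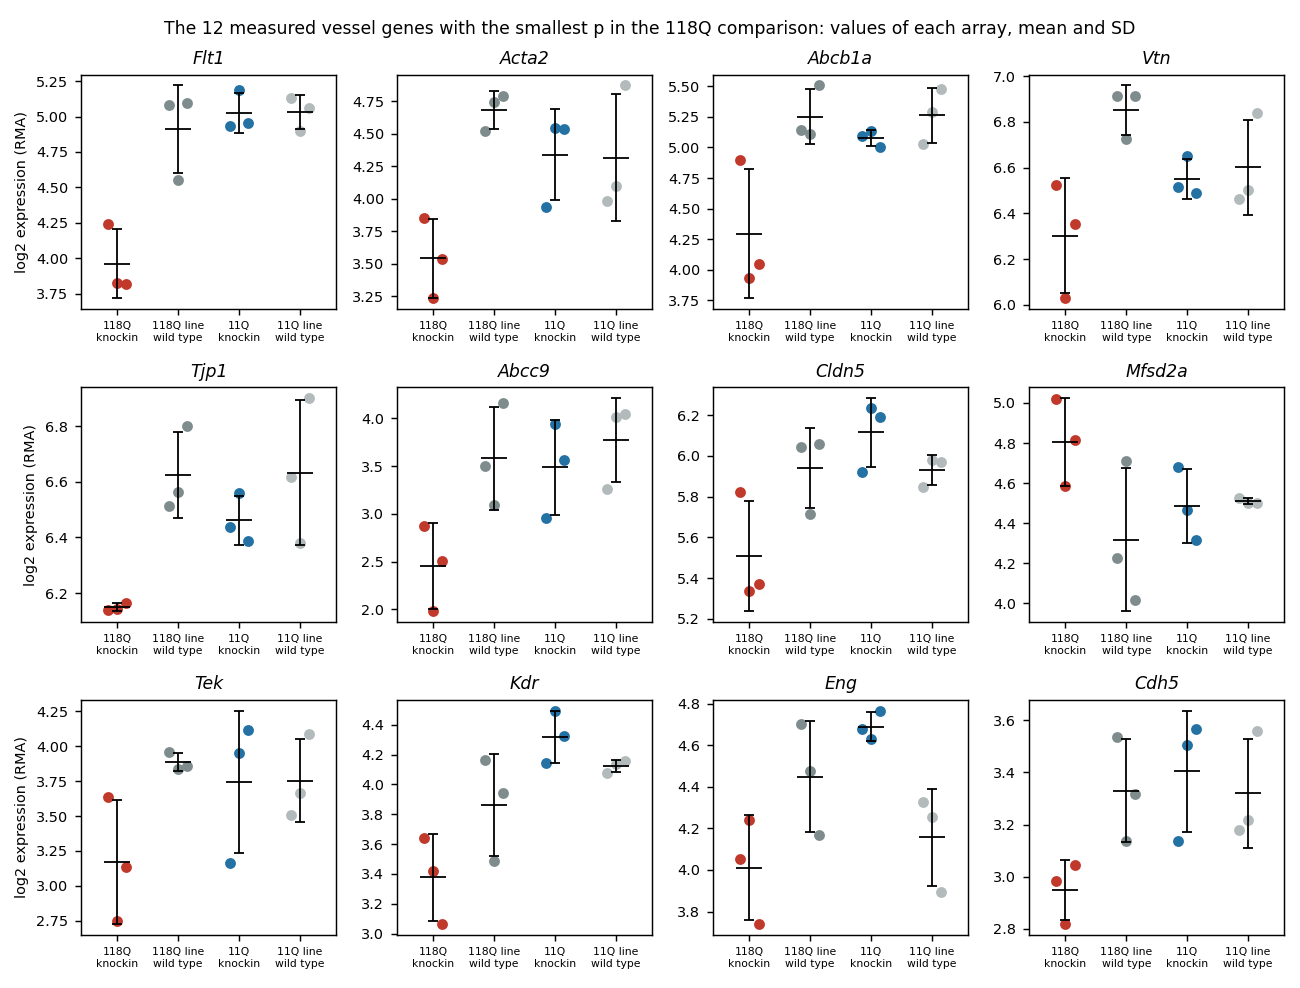
Log2 expression in each array for the 12 measured genes with the smallest p in the 118Q comparison, with the mean (long bar) and SD of the 3 arrays of each group. The 118Q knockin points lie below all points of their littermates for Flt1, Acta2, Abcb1a, Vtn, Tjp1, Abcc9, Tek and Cdh5, and Mfsd2a is the gene with a higher knockin mean.

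For 11 genes more than 1 probe set passed the filter, which allows a check within the gene. The 3 Flt1 probe sets differed by -0.95 ± 0.17, -0.53 ± 0.15 and -0.37 ± 0.13 in the 118Q line when probe sets were tested one by one, and in each the knockin arrays lay below the littermate arrays. The Abcb1a probe sets gave -0.96 and -0.99, those of Vtn -0.55 and -0.52, those of Eng -0.44 and -0.52, and the 3 Slc2a1 probe sets -0.36, -0.34 and -0.32. In contrast, Pdgfrb gave -0.62 in its brightest probe set and 0.09 in the other, Abcc9 gave -1.13 and -0.28, and the 4 Rgs5 probe sets ranged from -0.38 to 0.15. Values for Pdgfrb, Abcc9 and Rgs5 thus depend on the probe set read. The second Vtn probe set differed by -0.01 ± 0.16 between the 118Q and 11Q knockins. Between the wild types of the 118Q and 11Q lines it differed by 0.47 ± 0.16, with no overlap of arrays, and did not pass.

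**Figure D3:**
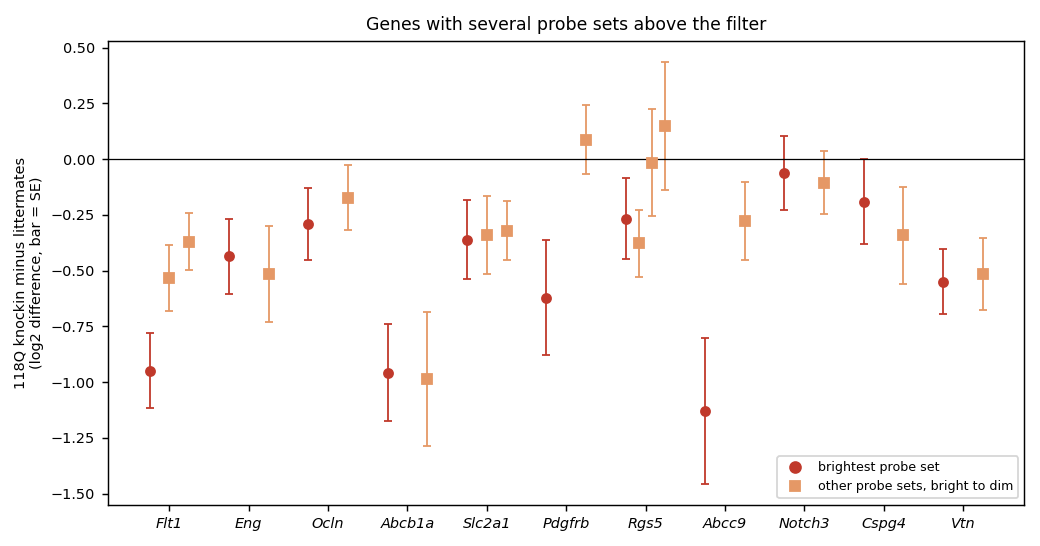
Difference between 118Q knockin and littermate arrays for every probe set above the filter of the 11 genes with more than 1, brightest probe set in red and the others in orange, with SE bars. The Flt1, Abcb1a, Vtn and Slc2a1 probe sets all lie below 0, while those of Pdgfrb and Rgs5 lie on both sides of it.

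The 118Q knockin was also compared with the 11Q knockin, which sets the long repeat against a repeat of normal length in the same knocked-in gene. Each allele comes from its own line, so the lines are set against each other as well. The 18S signal and the phe, lys, dap and thr controls also differed between these knockins without overlap. Repeat length, line and these measures of RNA and labelling therefore cannot be told apart in this comparison. This comparison shares its 118Q knockin arrays with the one above and is not a second test of them. Of the 31 genes, 7 were called and all 7 were lower in the 118Q knockin, while 3.6% of all genes were called lower and 10.1% higher. In 12 of 31 the 118Q knockin arrays lay below all 11Q knockin arrays, which held for 11.6% of all genes. The median difference was -0.31, against 0.09 over all genes, and 24 of 31 were below 0, against 37.5% of all genes. Genes of other cells and of the ribosome differed in the same comparison: 8 of 8 ribosomal protein genes and 6 of 11 microglial genes were called higher, and 5 of 13 Purkinje cell genes lower. Their part in the vessel-gene values was not tested.

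The called genes cover 3 receptors, a junction protein, a pump, a granule protein and a contractile protein. Flt1 fell by 1.06 ± 0.16 (limma, adjusted p = 0.00586) and Kdr by 0.94 ± 0.18 (adjusted p = 0.00902), with Kdr values of 3.64, 3.42 and 3.07 in the 118Q knockin and 4.14, 4.49 and 4.32 in the 11Q knockin. Vwf fell by 1.81 ± 0.37 (adjusted p = 0.0119), with values of 2.08, 1.18 and 1.47 in the 118Q knockin and 3.41, 3.74 and 3.00 in the 11Q knockin, the widest gap of the 7. The Vwf values of 1.18 and 1.47 are under the filter level of 1.58 for dim probe sets, so the size of this gap is uncertain. Eng read 4.05, 4.24 and 3.74 in the 118Q knockin and 4.68, 4.63 and 4.77 in the 11Q knockin, and fell by 0.68 ± 0.16 (limma, adjusted p = 0.0216). The second Eng probe set differed by -0.22 ± 0.21 with overlapping arrays and did not pass (adjusted p = 0.538, probe sets one by one). Cldn5 read 5.82, 5.34 and 5.37 in the 118Q knockin and 5.92, 6.23 and 6.19 in the 11Q knockin, and fell by 0.61 ± 0.15 (adjusted p = 0.0216). The pump and the contractile gene had the largest adjusted p-values of the 7. Abcb1a read 4.90, 3.93 and 4.05 in the 118Q knockin and 5.09, 5.14 and 5.01 in the 11Q knockin, and fell by 0.78 ± 0.22 (adjusted p = 0.0338). Acta2 read 3.85, 3.24 and 3.53 in the 118Q knockin and 3.94, 4.55 and 4.53 in the 11Q knockin, and fell by 0.80 ± 0.24 (adjusted p = 0.0443). None of these 118Q knockin values reached the lowest 11Q knockin value of its gene. Among these 7, Flt1 and Kdr kept the call in every fit that left out 1 array. Without 118Q knockin replicate 3 these were the 2 vessel genes called, and without 118Q knockin replicate 2 the calls were these, Eng and Vwf. Without 11Q knockin replicate 2 they were Flt1, Kdr and Vwf, and without 11Q knockin replicate 3 the same 3 and Nos3, which is not among the 7.

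Abcc9 (-1.03 ± 0.32, limma, adjusted p = 0.0525), Myh11 (-0.32 ± 0.10, adjusted p = 0.0576) and Cdh5 (-0.46 ± 0.15, adjusted p = 0.0608) came next and did not pass. Vtn, in contrast, differed by -0.25 ± 0.14 and Rgs5 by -0.01 ± 0.18, and none of the 7 measured genes listed as pericyte genes was called; Acta2 was the 1 call among the 11 mural genes. On the other side of 0, Emcn differed by 0.37 ± 0.35, Kcnj8 by 0.32 ± 0.19 and Mfsd2a by 0.32 ± 0.17, none of which passed.

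In the 11Q line, knockin against littermates, limma called 0 of 12672 genes, with 397 lower and 139 higher at an unadjusted p below 0.05. Of the 31 vessel genes 1 was lower and 3 were higher at that unadjusted threshold, where 3.13% of all genes were lower and 1.1% were higher. Their median difference was -0.01, against -0.04 over all genes. Eng read 4.68, 4.63 and 4.77 in the 11Q knockin and 4.33, 4.25 and 3.89 in its littermates, without overlap (0.53 ± 0.16, limma, adjusted p = 0.939), while its second probe set differed by -0.01. Nos3 read 4.01, 3.72 and 3.15 in the 11Q knockin and 3.24, 3.12 and 3.03 in its littermates, with the third knockin array among the wild type values (0.49 ± 0.17, adjusted p = 0.939). Myh11 read 2.09, 1.87 and 2.05 in the 11Q knockin and 1.81, 1.54 and 1.65 in its littermates, at signals close to the filter (0.33 ± 0.10, adjusted p = 0.939). Abcg2, at 4.61, 4.57 and 4.41 in the 11Q knockin and 4.78, 5.00 and 5.08 in its littermates, differed by -0.42 ± 0.15 (adjusted p = 0.939). It is named after its values were seen.

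Whether the allele's effect differs between the lines was tested directly, as the 118Q effect minus the 11Q effect. No vessel gene passed, and limma called 0 of 12672 genes, with 367 lower and 1025 higher at an unadjusted p below 0.05. At that unadjusted threshold 10 of the 31 genes had a lower effect in the 118Q line and 0 a higher one. Of all genes, 2.9% were lower and 8.09% higher. For the vessel genes 28 of 31 differences lay below 0, against 37.7% of all genes. Their median was -0.30, against 0.08 over all genes. Eng differed by -0.97 ± 0.23, Flt1 by -0.94 ± 0.23 and Acta2 by -1.17 ± 0.34 (limma, adjusted p = 0.346 for each). For Flt1 and Acta2 nearly all of this came from the 118Q line, since their 11Q effects were -0.01 and 0.02; for Eng it came from both, with 11Q and 118Q effects of opposite sign. The 95% interval of the Flt1 difference ran from -1.44 to -0.44 before adjustment for the number of genes.

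Wild type mice of both lines, 118Q against 11Q, carry no knockin allele. Limma called 0 of 12672 genes, with 137 lower and 241 higher at an unadjusted p below 0.05, and the 31 vessel genes had a median difference of 0.01. Kcnj8 had the smallest p, with 2.78, 3.03 and 2.82 in the 118Q-line and 2.12, 2.10 and 2.83 in the 11Q-line wild type arrays (0.53 ± 0.19, limma, adjusted p = 1). Tagln, at 3.63, 3.48 and 3.42 in the 118Q-line and 3.34, 3.17 and 3.36 in the 11Q-line wild type arrays, differed by 0.22 ± 0.11 and Vtn, at 6.91, 6.73 and 6.91 in the 118Q-line and 6.46, 6.50 and 6.84 in the 11Q-line wild type arrays, by 0.25 ± 0.14, neither of which passed. In the 11Q line, wild type replicate 3 read highest of its group for all 3 genes.

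The vessel wall around these cells was followed through a list of 17 measured basement membrane genes. In the 118Q line 14 of 17 had differences below 0, with a median of -0.26, none was called, and 8 were lower at an unadjusted p below 0.05. Col4a1, the collagen IV chain that forms the sheet, differed by -0.74 ± 0.17 (limma, adjusted p = 0.0693), Col18a1, the collagen that yields endostatin, by -0.70 ± 0.18 (adjusted p = 0.0801) and Lamb1, a laminin chain, by -0.72 ± 0.18 (adjusted p = 0.0813). Against the 11Q knockin 6 of 17 were called, all lower, where 3.6% of all genes were: Col4a1 (-0.99 ± 0.17, adjusted p = 0.00735), Col18a1 (-0.92), Lamc1 (-0.62), Col4a2 (-0.80), Dag1 (-0.34) and Lama4 (-0.41). Per array, the median over the list was -0.27, -0.21 and -0.21 in the 118Q knockin and 0.17, -0.04 and 0.03 in its littermates.

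**Figure D4:**
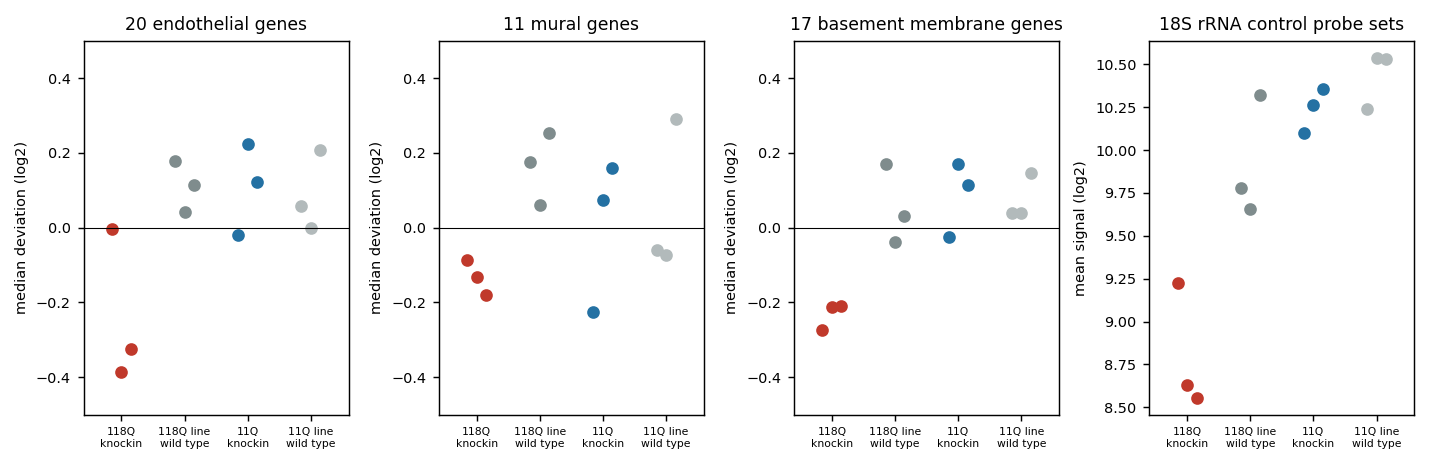
Median deviation per array, in log2 units from each gene's mean over 12 arrays, for 20 endothelial, 11 mural and 17 basement membrane genes, and the mean 18S ribosomal RNA control signal. The 118Q knockin points are the lowest for endothelial genes in replicates 2 and 3, the lowest of all 12 arrays for basement membrane genes, and the lowest for the 18S signal at 8.56 to 9.23.

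The partners of these receptors gave a mixed picture. Of 21 measured angiogenic ligands 10 were below 0 in the 118Q line (median 0.02), none was called, and the smallest p-values belonged to Vegfb (0.29 ± 0.13), Angpt1, the ligand of TIE2 (0.42 ± 0.20), and Wnt7a, a barrier-inducing signal (0.30 ± 0.15). Against the 11Q knockin Angpt1 (0.83 ± 0.20, limma, adjusted p = 0.0216), Wnt7a (0.63), Apln (0.62) and Vegfb (0.46) were called higher, 4 of 21, where 10.1% of all genes were. Of 20 co-receptors and further receptors 14 were below 0 (median -0.15) with none called. Ptprb, the endothelial phosphatase VE-PTP, differed by -0.76 ± 0.16 (adjusted p = 0.0644), Bmpr2 by -0.34 ± 0.10 and Nrp1, a VEGF co-receptor, by -0.59 ± 0.20. Against the 11Q knockin Ptprb (-0.94 ± 0.16, limma, adjusted p = 0.00781), Bmpr2 and Notch1 were called lower, and Tgfbr1 and Notch4 higher. These were 3 of 20 lower and 2 of 20 higher, where 3.6% of all genes were called lower and 10.1% higher.

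Among 23 endothelial transcription factors 17 were below 0 in the 118Q line (median -0.06), none called. Mef2c, which neurons also express, differed by -0.55 ± 0.12 (limma, adjusted p = 0.0609), Ets1 by -0.53 ± 0.17 and Hey1, a Notch target, by 0.34 ± 0.10. Against the 11Q knockin Ets1 (-0.78 ± 0.17, adjusted p = 0.0156) and Sox7 were called lower, and Hey1 and Lyl1 higher, 2 of 23 each way. Of 23 other barrier transport genes 17 were below 0 (median -0.23), none called, led by Lrp8 (-0.36 ± 0.13), Abcc4 (-0.44 ± 0.18) and Slc7a1 (-0.49 ± 0.21). Between the knockins, Slc6a6 (-0.55), Spock2 (-0.75) and Ifitm3 (-0.53) of this list were called lower, and Cav2 (0.48) higher, 3 and 1 of 23. Other junction genes were split, with 10 of 22 below 0 (median 0.03), led by Cdh2 (-0.57 ± 0.19), Ctnnb1 (-0.29 ± 0.10) and Cldn12 (-0.23 ± 0.11), all of which other cells express too. Cdh2 (-0.66) and Gja4 (-0.46) were called lower against the 11Q knockin, 2 of 22, and 0 higher. Of all genes, 3.6% were called lower and 10.1% higher between the knockins.

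Further smooth muscle genes did not follow Acta2: 6 of 14 were below 0, with a median of 0.03. In this list Myl6, a myosin light chain of smooth muscle and other cells, rose by 0.77 ± 0.13 (limma, adjusted p = 0.0465), while Ppp1r12a differed by -0.31 ± 0.12 and Cald1 by -0.22 ± 0.12. Myl6 (0.51) and Tpm4 (0.87) were called higher against the 11Q knockin, 2 of 14, where 10.1% of all genes were.

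Genes of other cells in the tissue leaned in both directions beside the vessel genes, and their part in these values was not tested. All 11 microglial genes were above 0 in the 118Q line (median 0.59). Their median deviation per array ran between 0.39 and 0.70 for the 118Q knockin, against -0.28 and 0.20 for 118Q-line wild type arrays. Trem2, a microglial receptor, rose by 0.77 ± 0.13 (limma, adjusted p = 0.0465), Tyrobp differed by 1.03 ± 0.19 and C1qb by 0.73 ± 0.22. Of 13 Purkinje cell genes 11 were below 0 (median -0.65), with Slc1a6 called (-1.13 ± 0.20, limma, adjusted p = 0.0465), Fam107b at -0.68 and Dner at -1.04. All 8 ribosomal protein genes were above 0 (median 0.41), led by Rps18, which rose by 0.63 ± 0.11, Rps27 (0.58) and Rps14 (0.49).

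Fibroblasts of the meninges share matrix genes with vessels. All 14 of their genes were below 0 in the 118Q line (median -0.24), none called, led by Lum (-0.49 ± 0.19), Islr (-0.36 ± 0.15) and Col1a2 (-0.30 ± 0.13). Per array their median was 0.07, -0.14 and -0.16 in the knockin and 0.26, -0.01 and 0.29 in its littermates, which overlap, and Dcn read 5.67 to 5.76 against 5.72 to 6.17. Against the 11Q knockin 6 of 14 were below 0 (median 0.03) and none was called. Ttr, the defining transcript of choroid plexus, ranged from 5.26 to 11.9 over the arrays, between 8.66 and 11.8 for the 118Q knockin and between 6.25 and 11.9 for its littermates, and with Ttr as covariate, a fit added after seeing the data, the vessel genes' median was -0.31 and Flt1 was still called.

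Blood left in the tissue was read from red cell genes. The globin probe sets read for Hba-a1 and Hba-a2, each assigned to that gene alone, lay between 0.52 and 1.25 in every array, under the filter. Probe sets assigned to several genes were left out, so these values are not a measure of how much blood was present. Of 10 listed genes 3 were measured. Bpgm differed by 0.27 ± 0.11, Alas2 by -0.39 ± 0.25 and Hbb-b2 by 0.04 ± 0.18 in the 118Q line. Alas2, which makes haem in red cell precursors, read 2.20 to 2.93 in the 118Q knockin and 3.34 to 3.97 in the 11Q knockin, and was called lower in the 118Q knockin (-1.16 ± 0.25, limma, adjusted p = 0.0139). Bpgm, a red cell enzyme that acts on oxygen release, was called the other way in that comparison (0.36 ± 0.11, limma, adjusted p = 0.0433), so the red cell genes split. Whether blood content bears on the vessel genes was not tested.

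Astrocyte genes, whose end-feet cover the vessels, had a median of 0.09 with 5 of 12 below 0 and none called: Gfap differed by 0.57 ± 0.23, Slc1a3 by -0.39 ± 0.19 and Mlc1 by 0.25 ± 0.13, and Aqp4, the end-foot water channel, averaged 8.87 ± 0.19 in the 118Q knockin and 8.87 ± 0.22 in littermates (SD, n = 3 each). Oligodendrocyte genes had a median of 0.13 (Mobp 0.66 ± 0.19, Mbp -0.19 ± 0.12, Mog 0.48 ± 0.34), granule cell genes -0.03 (Zic1 -0.25 ± 0.11, Fat2 -0.28 ± 0.16, Barhl1 0.34 ± 0.20) and choroid plexus genes -0.18 (Clic6 -0.68 ± 0.83, Otx2 0.15 ± 0.21, Slc4a5 -0.31 ± 0.61), with none called in the 118Q line. In the 11Q line all 11 choroid plexus genes were below 0, with a median of -2.21 and none called; Ttr there read 5.26 to 11.8 in the knockin and 11.9 in every littermate.

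The length of a gene on the genome (its span) went with the 118Q difference across the whole array. The rank correlation over genes between span and an array's deviation was -0.33 to -0.24 in the 118Q knockin arrays and -0.04 to 0.16 in their littermates, a description over genes that share an array. Genes were ranked by span and cut into 4 equal bins; in the longest bin 16.4% were lower at an unadjusted p below 0.05, and in the shortest 2.78%. Several vessel genes are long, with Flt1 at 164.8 kb, Abcb1a at 181.5 kb, Tjp1 at 231.7 kb and Abcc9 at 114.9 kb, while Cldn5 spans 1.42 kb, Vtn 3.21 kb and Acta2 15.3 kb. Other short genes had differences near or above 0: Des spans 8.29 kb, Mfsd2a 14.3 kb, Tie1 18.7 kb and Nos3 19.7 kb. From the shortest bin to the longest, the vessel genes' medians were -0.26, -0.06, -0.33 and -0.59, against 0.15, 0.10, 0.03 and -0.07 over all genes. At an unadjusted p below 0.05, 2 of 5, 1 of 6, 4 of 10 and 6 of 10 were lower, so the longest bin had both the lowest median and the most such genes. Within the 4 bins, 5 of 5, 5 of 6, 10 of 10 and 10 of 10 vessel genes lay below the median of all genes of their bin, from shortest to longest. With the span trend removed from each array the vessel genes' median was -0.36, against 0.01 over all genes, and Flt1 differed by -0.86 (limma, adjusted p = 0.0674).

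**Figure D5:**
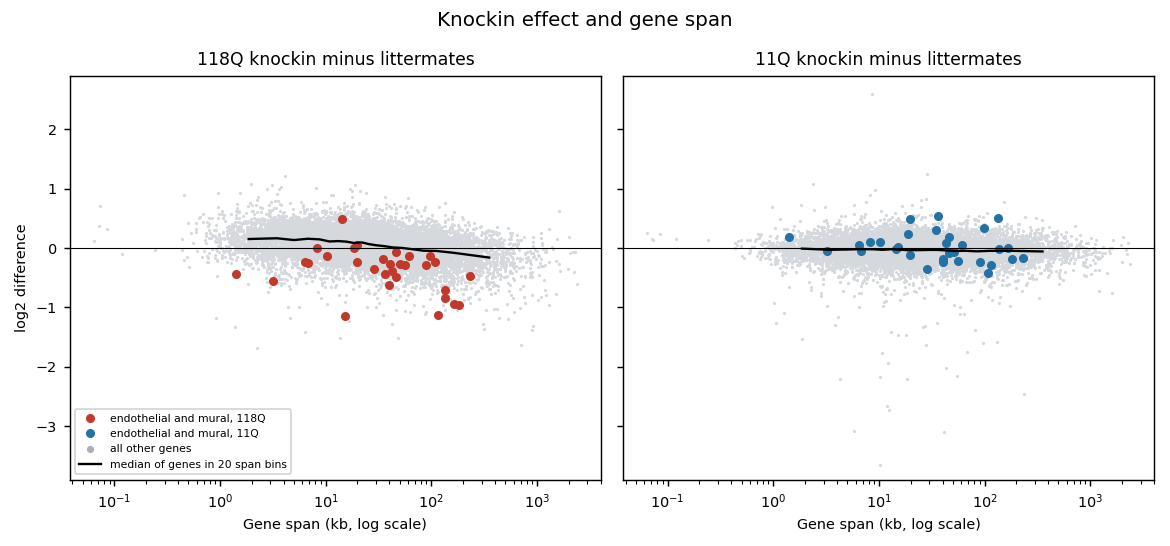
Difference between knockin and littermate arrays against gene span (log axis, kb) for all genes with a known span (grey), with the 31 vessel genes in red for the 118Q line and in blue for the 11Q line; the black line joins medians of genes binned by span. In the 118Q line the black line slopes downward. With genes cut into 4 equal span bins, 30 of 31 vessel genes in the 118Q line lie below the median of their bin. In the 11Q line the points lie on both sides of these medians. The count was not made against the black line.

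With the 18S signal as a covariate the vessel genes' median in the 118Q line was 0.06, against 0.08 over all genes, and limma called 0 genes. Flt1 differed by -0.40 (limma, adjusted p = 0.804), Eng by -0.71 and Acta2 by -0.39. In that fit 5 of the 12 genes with the smallest p changed sign: Abcb1a was at 0.13, Abcc9 at 0.44, Cldn5 at 0.21, Tek at 0.15 and Kdr at 0.08, with no gene passing. With the same covariate the vessel genes' median was 0.14 in the 118Q knockin against the 11Q knockin, with 0.15 over all genes and none called. How much of the vessel-gene differences the 18S signal and the allele each carry cannot be told apart in these arrays.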

How the data were processed

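Expression was measured on 12 single-colour Affymetrix arrays of mouse cerebellum RNA, 1 per mouse. The authors deposited 1 table of 45101 probe sets on a log2 scale, made with RMA per the submitters' processing notes, which name no version. RMA forces the probe intensities of the arrays to 1 distribution before they are summed up into probe sets, so a change shared by most genes would largely not show. The medians of the deposited probe set values still ran from 2.21 to 2.38 over the arrays. Array values carry no read depth, and the number of arrays limits the precision.

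Symbols came from the platform annotation: 34958 probe sets had 1 symbol, 932 several and 9211 none, and the last 2 kinds were left out. The dimmest 40% of probe sets were removed (log2 mean under 1.582), and the brightest of the rest stood for each gene. One limma model (version 3.58.1, R 4.3.3) with a mean per group was fitted over all 12 arrays and 12672 genes, with 8 residual degrees of freedom, moderated by 4.61 prior ones. Calls used a Benjamini-Hochberg adjusted p below 0.05. Gene spans and promoters came from RefSeq (GRCm38.p6).

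The members and all lists were chosen with earlier results of these data known. Members called anywhere, the 12 with the smallest p in the 118Q line and up to 3 in each other comparison have all values printed; up to 3 genes per other list are named by p in the 118Q line. Genes of the vessel-related lists called between the knockins, Bpgm and Alas2 there, and Abcg2 in the 11Q line, were named after their values were seen. Replicate numbers are not stated to pair the mice, so the main fit used no pairing. Deviations of same-numbered arrays had correlations of -0.0792, -0.112 and -0.0293 in the 118Q line and 0.193, -0.171 and 0.0127 in the 11Q line. Deviations from a mean of 3 arrays constrain each other, so these values cannot show whether mice were paired. Alternatives changed the filter, the probe set rule, scaling, weights, covariates, the threshold and single arrays.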

Additional observations from a re-analysis of the deposited data

Results flagged for a closer look

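Myh11, smooth muscle myosin, stood out because its effects ran in opposite directions in the 2 lines. It read 1.63, 1.75 and 1.67 in the 118Q knockin and 1.85, 1.85 and 1.76 in its littermates, and 2.09, 1.87 and 2.05 in the 11Q knockin and 1.81, 1.54 and 1.65 in its littermates. Every 118Q knockin array lay below, and every 11Q knockin array above, the arrays of its littermates. The difference of the effects was -0.47 ± 0.15 and did not pass (limma, adjusted p = 0.346), at signals close to the filter on dim probe sets. Another Myh11 probe set, under the filter, did not repeat this pattern. It read 1.36, 0.96 and 1.01 in the 118Q knockin and 1.02, 0.89 and 1.00 in its littermates. In the 11Q line it read 1.00, 0.55 and 0.88 in the knockin and 0.80, 0.99 and 0.72 in littermates, so the groups overlapped in both lines.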

How the results depend on the processing

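In the 118Q line, 1 vessel gene and 24 genes in all were called. The counts were 3 and 150 with the lowest 60% of probe sets removed, 2 and 43 after quantile normalization, 3 and 200 with an intensity trend, 14 and 2373 with array weights, and 4 and 391 at an adjusted p below 0.1. No vessel gene (0) was called with the mean of probe sets or probe sets one by one, with arrays centred on their median (10 genes), with only the groups compared (0 genes), with the span trend removed (7), without both wild type replicates 3 (3), or with the 18S signal as covariate (0). The replicate block left 0 vessel genes and 5 genes (Flt1 adjusted p = 0.0879 in limma). Whether the numbers pair the mice is not stated, and the block could not be fitted between the knockins or between the wild types.

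With the 18S signal as covariate the vessel genes' median was 0.056 in the 118Q line, -0.16 for the difference of effects and 0.14 between the knockins, where 0 vessel genes and 0 genes were called and Cldn5 (0.22), Abcb1a (0.61) and Acta2 (0.18) changed sign; the cause was not tested. Array weights gave 6 and 394 calls for the difference of effects (0 and 0 otherwise) and 21 and 5989 between the knockins (7 and 1732 otherwise); the weight of 118Q knockin replicate 3 was 5.59 and that of replicate 1 was 0.353. Between the knockins the counts were 851 genes with the span trend removed, 12 vessel genes without both wild type replicates 3, and 12 and 2892 at an adjusted p below 0.1. Only the groups compared gave 1 gene in the 11Q line, and 1 gene was called between the wild types with the 18S signal or Ttr as covariate (Ttr was chosen after seeing the data) or without both wild type replicates 3.

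Leaving out 1 array gave 0 to 5 vessel genes, 4 to 707 genes and medians of -0.43 to -0.26 in the 118Q line; 5 vessel genes and 707 genes came without knockin replicate 1. It gave 0 to 12 genes and medians of -0.44 to -0.30 for the difference of effects, 2 to 9 vessel genes and 319 to 2274 genes between the knockins, and 0 to 1 genes between the wild types. The direction of the vessel genes' median in the 118Q line held in these fits. With 3 arrays a group, differences near the median SE of 0.139 cannot be resolved.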
